A study of Mus musculus with 12 samples.

Results

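The genes described here are 10 that govern how ventricular muscle takes up and breaks down glucose, several of them alternative isoforms of 1 step: the glucose transporters Slc2a1 (GLUT1) and Slc2a4 (GLUT4), the hexokinases Hk1 and Hk2, the phosphofructokinase subunits Pfkm, Pfkl and Pfkp, the lactate dehydrogenase subunit Ldha, the pyruvate dehydrogenase kinase Pdk4 and the phosphorylase kinase subunit Phkg1. They were chosen by name, with earlier results of these data known. The probe set annotated to that gene alone was taken, the one with the highest mean over 12 arrays where there were several. All 10 were measured, of 19938 genes in all, and Hk1 was the only 1 with more than 1 probe set. The tissue was ventricle of male C57BL/6 mice in 6 groups of 2 Affymetrix whole-transcript arrays. Mice of 3 groups carried a Weck clip around the pulmonary artery (pulmonary artery clipping, PAC), which narrows the outflow of the right ventricle (RV), and their RV was taken after 1 week (age 13 weeks), 3 weeks (15 weeks) or 6 weeks (18 weeks). A single sham RV group, 3 weeks after surgery at age 15 weeks, served as control for all 3, so the PAC comparisons share these 2 arrays, and at 1 and 6 weeks time after surgery and age differ from the sham group together. The left ventricle (LV) was taken 3 weeks after a clip on the aorta (transverse aortic constriction, TAC) and 3 weeks after sham surgery, both at 15 weeks. The labels do not state that the arrays came from separate animals, or whether sham RV and sham LV came from the same hearts, so the p-values measure only the spread between these arrays.

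As background, glucose enters cardiomyocytes through GLUT1, the carrier of basal uptake, and GLUT4, which insulin and contraction bring to the cell surface, and hexokinase then traps it as glucose 6-phosphate. Phosphofructokinase, a tetramer built from muscle (Pfkm), liver (Pfkl) and platelet (Pfkp) subunits, commits the sugar to glycolysis, and the adult heart is known to use mostly the muscle subunit. The adult heart burns mainly fatty acids, and hearts under pressure load are known for a turn toward glucose and toward isoforms of the fetal heart.

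The clipped RV differed from the sham RV in a few of these genes and by isoform. Averaged over the 3 PAC times, Pfkp rose 2.58-fold, Slc2a1 1.5-fold and Pfkl 1.32-fold, while Phkg1 fell 1.8-fold. The muscle-type partners Slc2a4, Hk2 and Pfkm, together with Hk1, Ldha and Pdk4, did not pass the test in this comparison. All values are log2 expression values on the deposited scale, a difference of 1 being a doubling, and the test was limma's moderated test with Benjamini-Hochberg adjustment over all genes, called at an adjusted p below 0.05. With 2 arrays on each side the smallest two-sided p of an exact permutation test is 0.33, and with 6 against 2 it is 0.071, so such tests of single genes could not reach 0.05. The mates of a group correlated at 0.992 (PAC 1 week, the lowest) to 0.997 over all genes, and no arrays were identical.

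Of the 10 genes, 2 were called higher and 1 lower after 1 week of PAC, where 9.57% of all genes were called higher and 8.86% lower. After 3 weeks 2 were higher and 1 lower, against 3.22% and 2.54% of all genes. After 6 weeks 3 were higher and 1 lower, against 5.52% and 3.73%. In the mean of the 3 times 3 were higher and 1 lower, against 12.2% and 12.6%. The median change of the 10 genes was 0.09, 0.08 and 0.10 after 1, 3 and 6 weeks, beside -0.05 over all genes at each time. All 10 lay above the median gene level (6.74), the dimmest being Phkg1 at 7.74. Among the 9969 genes at or above that level, fitted alone, the median change was 0.08, 0.07 and 0.07. In that fit 2001, 1212 and 1746 were called higher and 693, 375 and 691 lower, with 2625 and 1060 in the mean of the times. The share called higher among these 9969 genes was thus larger than over all genes at each time and in the mean. In 6 of the 10 genes all 6 PAC arrays lay on 1 side of both sham RV arrays, 3 above (Slc2a1, Pfkl, Pfkp) and 3 below (Slc2a4, Pdk4, Phkg1), a pattern that 38.6% of all genes showed. By the F test over all 6 groups, Pfkp (adjusted p = 0.032) and Phkg1 (adjusted p = 0.024) varied, 2 of 10 beside 2.66% of all genes. No gene of the 10 passed between TAC and sham LV, where 0.0% of all genes were called. None passed between sham RV and sham LV (0.411% of all genes), between 6 and 1 week of PAC (0.0953%), between PAC and TAC at 3 weeks (0.0201%) or in the interaction at 3 weeks, the PAC change less the TAC change (0.0%). At an unadjusted limma p below 0.05, 1 of the 10 passed for TAC, 5 for sham RV against sham LV, 2 for 6 against 1 week, 2 for PAC against TAC and 4 for the interaction, beside 4.83%, 20.7%, 9.75%, 7.37% and 11.9% of all genes (963, 4123, 1944, 1470 and 2381).

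The stretches upstream of the 4 genes that passed are shown because these genes changed in the clipped RV, and because the core of the hypoxia-response element, ACGTG or GCGTG, is a sequence through which glycolytic genes are known to be regulated. Each is the 250 bases before the gene's start in RefSeq (build GRCm38.p6), 5′ to 3′ on the gene's strand, and capitals mark ACGTG or GCGTG on either strand, so that CACGT and CACGC are the same cores read on the other strand.
Slc2a1, chr4:119108495-119108744, plus strand: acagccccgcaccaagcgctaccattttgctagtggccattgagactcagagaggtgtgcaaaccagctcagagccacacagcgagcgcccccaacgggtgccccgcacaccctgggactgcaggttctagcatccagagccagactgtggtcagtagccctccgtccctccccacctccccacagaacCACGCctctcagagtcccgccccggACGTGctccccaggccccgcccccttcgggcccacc
Pfkp, chr13:6648772-6649021, minus strand: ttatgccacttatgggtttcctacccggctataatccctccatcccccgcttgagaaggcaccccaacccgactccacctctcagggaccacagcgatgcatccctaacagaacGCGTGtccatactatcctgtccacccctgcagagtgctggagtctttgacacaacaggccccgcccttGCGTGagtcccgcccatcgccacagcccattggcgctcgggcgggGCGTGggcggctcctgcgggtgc
Pfkl, chr10:78009808-78010057, minus strand: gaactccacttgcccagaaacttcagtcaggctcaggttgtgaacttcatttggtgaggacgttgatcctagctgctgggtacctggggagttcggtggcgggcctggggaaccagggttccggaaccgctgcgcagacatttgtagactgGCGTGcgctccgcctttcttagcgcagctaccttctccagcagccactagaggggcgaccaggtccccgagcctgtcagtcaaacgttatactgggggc
Phkg1, chr5:129879089-129879338, minus strand: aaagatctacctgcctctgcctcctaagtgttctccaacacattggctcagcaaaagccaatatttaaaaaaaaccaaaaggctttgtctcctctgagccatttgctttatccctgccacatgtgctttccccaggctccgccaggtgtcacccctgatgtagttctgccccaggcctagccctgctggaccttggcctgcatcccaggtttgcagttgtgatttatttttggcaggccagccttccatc
The Slc2a1 window held 1 ACGTG and 1 GCGTG, the Pfkp window 3 GCGTG, the Pfkl window 1 GCGTG and the Phkg1 window neither. Genes that did not pass held them too: Hk1 3 GCGTG in 1 of its 2 windows, Hk2 2 ACGTG, Pdk4 1 GCGTG, and Pfkm at least 1 core in 3 of its 4 windows. Of 32851 such mouse windows, 38.6% held at least 1 of the cores (16.6% ACGTG, 28.2% GCGTG), so their presence is common. The GC box GGGCGG, the motif of Sp1-type factors, stood 4 times upstream of Pfkp and 2 times upstream of Slc2a1. It was absent from the Pfkl and Phkg1 windows. Of the genes that did not pass, the Hk2 window held 3 and 1 of the 2 Ldha windows held 2. The windows of Hk1, Pdk4 and Pfkm held none. Of all windows, 32.7% held at least 1 GC box. The last GCGTG of Pfkp shares a base with a GC box. Of the 10 genes 9 had windows, 14 in all, and the window with the most ACGTG matches, 5, was one of the 2 of Ldha, 4 of them as the 2 palindromes CACGTG (6.02% of windows), each of which is counted on both strands. These are matches of letters, and binding was not measured.

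**Figure D1:**
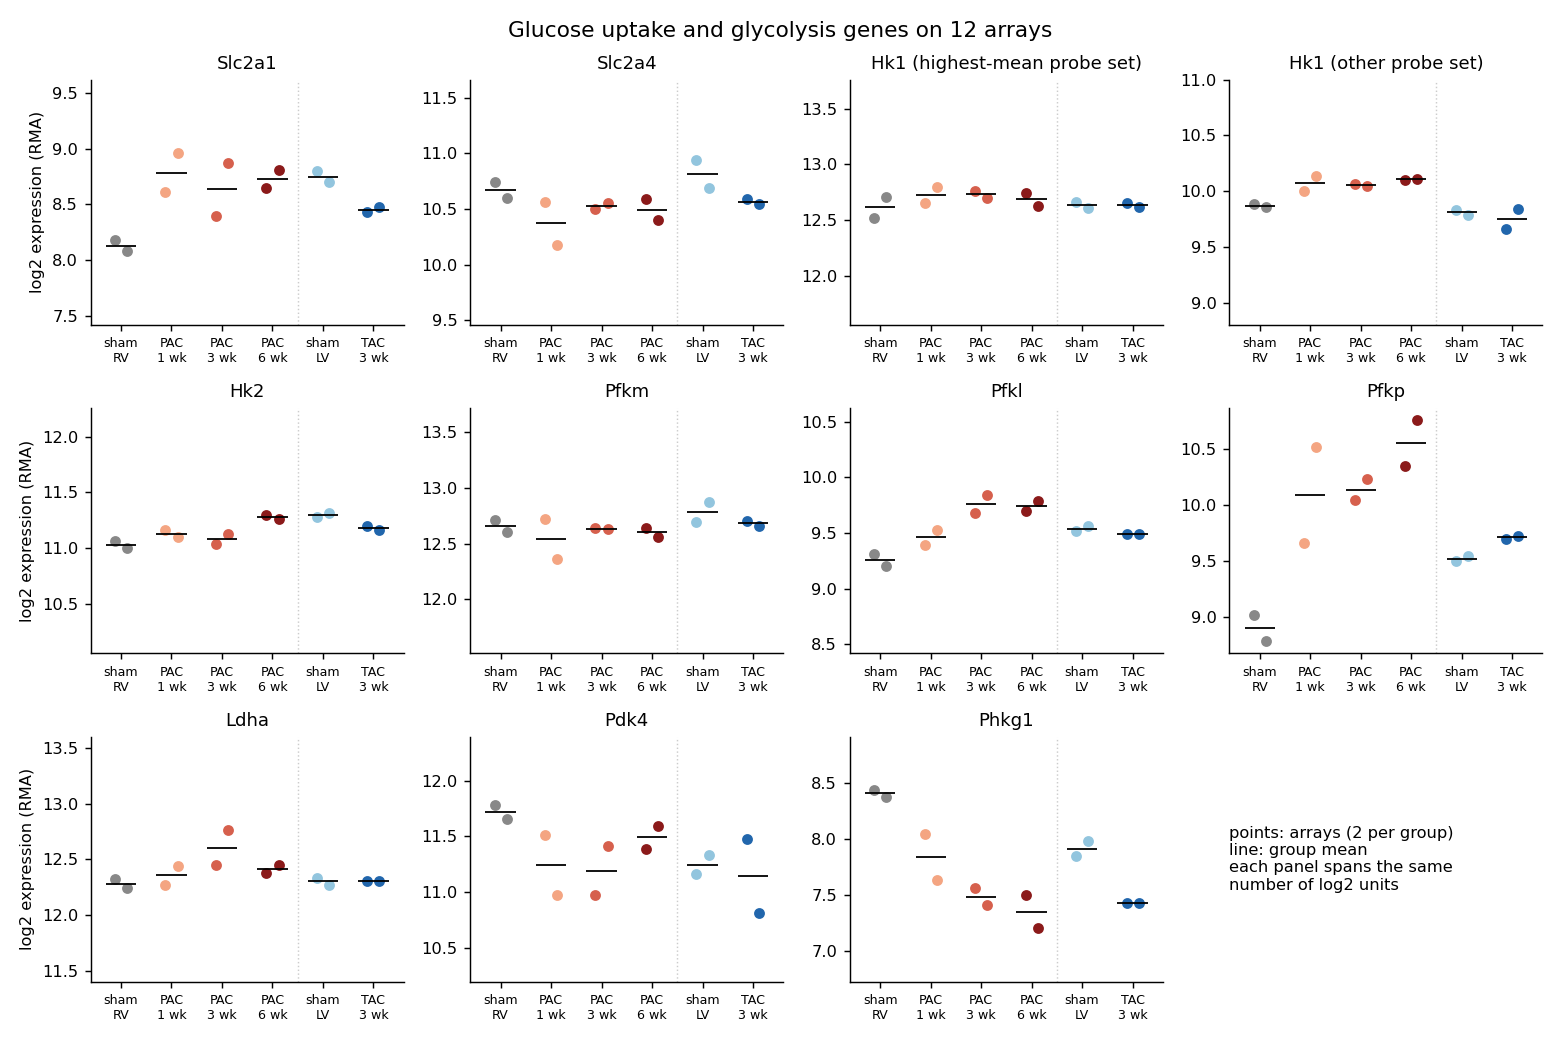
Log2 expression value (vertical axis) of each of the 10 genes, with both Hk1 probe sets, on the 12 arrays in 6 groups (horizontal axis); points are arrays, lines are group means of 2 arrays, and each panel spans the same number of log2 units. Pfkp runs from 8.78 in the sham RV to 10.76 after 6 weeks of PAC and Phkg1 from 8.44 down to 7.20, while the Hk2, Pfkm and Hk1 panels show narrower ranges.

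Of the glucose transporters, Slc2a1 rose in the clipped RV, and Slc2a4 stood lower without passing the test. Slc2a1 read 8.18 and 8.08 on the sham RV arrays, 8.61 and 8.96 after 1 week of PAC, 8.40 and 8.87 after 3 weeks and 8.65 and 8.81 after 6 weeks. Every PAC array was above both sham RV arrays, and the PAC times overlapped each other. The change was 0.65 ± 0.16 (SE, n = 2 arrays per group, limma adjusted p = 0.023) at 1 week, 0.51 ± 0.16 (adjusted p = 0.072, not passed) at 3 weeks and 0.60 ± 0.16 (adjusted p = 0.04) at 6 weeks. The mean over the 3 times was 0.59 ± 0.13 (adjusted p = 0.013), and this call was lost without sham RV array 1 (0.64, adjusted p = 0.057) or array 2 (0.53, adjusted p = 0.11); over all alternatives the adjusted p ran from 0.0051 to 0.11. The 1-week call was lost without PAC array 2 (0.47, adjusted p = 0.15), sham RV array 1 (0.70, 0.064) or sham RV array 2 (0.60, 0.11). The 6-week call held in 4 of 12 fits that left out 1 array, those without a 1- or 3-week PAC array, with changes of 0.52 to 0.68 over the 12 and a highest adjusted p of 0.27. It was also lost with cyclic loess (0.52, adjusted p = 0.062). The 3-week change passed without PAC 3-week array 1 (0.74, adjusted p = 0.036), without either 1-week PAC array (0.51, 0.047) and with dim genes, those below the median level, left out (0.51, 0.049).

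The insulin-responsive carrier Slc2a4 read 10.74 and 10.60 in the sham RV, 10.56 and 10.18 after 1 week of PAC, 10.50 and 10.55 after 3 weeks and 10.59 and 10.40 after 6 weeks. All PAC arrays lay below both sham RV arrays, the nearest pair being 10.59 and 10.60. The changes were -0.30 ± 0.13 (limma adjusted p = 0.12), -0.14 ± 0.13 (0.48) and -0.17 ± 0.13 (0.39), and none passed. Without PAC 1-week array 1, however, the 1-week change was -0.49 (adjusted p = 0.027) and the mean PAC change -0.27 (0.048), where it was -0.20 ± 0.11 (0.17) with all arrays. On the same array, the log2 ratio of Slc2a1 to Slc2a4 moved from -2.54 ± 0.03 (SD, n = 2) in the sham RV to -1.58 ± 0.52, -1.89 ± 0.30 and -1.76 ± 0.24 after 1, 3 and 6 weeks. Probe sets differ in affinity, so only the movement of such a ratio is read, not its level. The ratio was higher by 0.79 in the mean of the PAC times (pooled SD within groups 0.27), and the 6 PAC arrays did not overlap the sham RV arrays.

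In the LV neither transporter passed. Slc2a1 read 8.80 and 8.70 in the sham LV, as high as in the clipped RV, and 8.43 and 8.48 after TAC, so that the TAC arrays were the lower ones. Neither TAC against sham LV (-0.30 ± 0.16, limma adjusted p = 0.98) nor sham RV against sham LV (-0.62 ± 0.16, adjusted p = 0.081) passed for Slc2a1. The sham RV was thus the lowest of the 6 groups for this gene, 0.32 below the TAC LV with no overlap, while the other 5 groups each overlapped the next in order. Slc2a4 was at 10.94 and 10.69 in the sham LV and 10.59 and 10.54 after TAC (-0.25 ± 0.13, adjusted p = 0.98). The ratio of Slc2a1 to Slc2a4 was -2.06 ± 0.10 (SD, n = 2) in the sham LV and -2.11 ± 0.07 after TAC, moving by -0.05 with the arrays overlapping. Sham RV against sham LV gave -0.47 for this ratio with no overlap, and PAC 3-week array 1 (-2.10) lay among the LV arrays. The interaction of Slc2a1 was 0.80 ± 0.22 (adjusted p = 0.35) and did not pass.

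Neither hexokinase passed in any comparison. Hk2, the insulin-regulated muscle form, read 11.06 and 11.00 in the sham RV, 11.16 and 11.10 after 1 week, 11.04 and 11.13 after 3 weeks and 11.30 and 11.26 after 6 weeks of PAC. The 6-week arrays stood clear of the sham RV, by 0.25 ± 0.08 (limma adjusted p = 0.067), which did not pass with all genes but did without genes below the median level (adjusted p = 0.024) or with a trended and robust prior (0.025). The changes at the earlier times were 0.10 ± 0.08 and 0.05 ± 0.08. Sham LV arrays read 11.28 and 11.31, at the level of the 6-week PAC arrays, and TAC arrays 11.20 and 11.16 (-0.12 ± 0.08, adjusted p = 0.98). Sham RV against sham LV gave -0.27 ± 0.08 (adjusted p = 0.11), with no overlap, and this passed under the same pair of settings (0.037 and 0.038).

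Hk1, the broadly expressed hexokinase, had a pair of probe sets that disagree in what they are tied to. The one with the highest mean (12.67 over the arrays) is listed with 1 accession and no RefSeq transcript, and 19 of the 20 probe sets nearest to it by number belong to genes on chromosome 14, whereas Hk1 is on chromosome 10. The same accession stands on 16 probe sets listed with several genes, and all 16 also list the ribosomal gene Rpl17. The other probe set (mean 9.94) lists 8 accessions, 4 of them RefSeq, and 20 of its 20 neighbours are on chromosome 10. The values of both are therefore given. The highest-mean set read 12.52 and 12.71 in the sham RV and 12.63 to 12.80 on the 6 PAC arrays, so the groups overlapped, with a mean PAC change of 0.10 ± 0.08 (limma adjusted p = 0.36). The other set read 9.88 and 9.86 in the sham RV and up to 10.14 in PAC, every PAC array being higher than the sham RV, with a mean change of 0.20 ± 0.07 (adjusted p = 0.061). Neither probe set passed. Over the 12 arrays the 2 sets correlated with r = 0.56, and the highest-mean set correlated with the Rpl17 sets at 0.41 to 0.61, the other Hk1 set at 0.41 to 0.65. In the mean of the PAC times, the ratio of Hk1 to Hk2 moved by -0.04 with the first set (pooled SD 0.11) and 0.07 with the other (0.09). PAC and sham RV arrays overlapped in both. By time, the arrays did not overlap at 6 weeks with the first set (-0.18) and at 3 weeks with the other (0.13), and overlapped elsewhere. This ratio was higher in the sham RV than in the sham LV, by 0.25 with the first set and 0.34 with the other, with no overlap in either.

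The phosphofructokinase subunits showed the widest isoform difference. Pfkp, the platelet-type subunit, read 9.01 and 8.78 in the sham RV, 9.66 and 10.52 after 1 week of PAC, 10.05 and 10.23 after 3 weeks and 10.35 and 10.76 after 6 weeks. All PAC arrays exceeded both sham RV arrays, and the 1-week arrays lay farther from each other than those of any other group. The change was 1.20 ± 0.23 (limma adjusted p = 0.012, 2.3-fold), 1.25 ± 0.23 (0.025, 2.38-fold) and 1.66 ± 0.23 (0.0074, 3.16-fold) after 1, 3 and 6 weeks. The 6-week value was not shown to exceed the 1-week value (0.46 ± 0.23, adjusted p = 0.56). Pfkl, the liver-type subunit, read 9.31 and 9.20 in the sham RV, 9.39 and 9.53 after 1 week, 9.68 and 9.84 after 3 weeks and 9.70 and 9.79 after 6 weeks. All PAC arrays were again the higher ones, and the 3- and 6-week arrays also lay above both 1-week arrays. Pfkl rose by 0.50 ± 0.09 (adjusted p = 0.025) at 3 weeks and 0.49 ± 0.09 (0.016) at 6 weeks, and was at 0.21 ± 0.09 (0.13, not passed) at 1 week; 6 against 1 week gave 0.29 ± 0.09 (adjusted p = 0.31).

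The muscle-type subunit Pfkm did not pass at any time. It read 12.71 and 12.60 in the sham RV, 12.72 and 12.36 after 1 week, 12.64 and 12.63 after 3 weeks and 12.64 and 12.56 after 6 weeks of PAC, overlapping throughout. Its changes were -0.12, -0.02 and -0.05, each ± 0.12 (limma adjusted p = 0.48, 0.91 and 0.78). Against Pfkm on the same array, Pfkp moved from -3.77 ± 0.08 in the sham RV to -2.45 ± 0.85, -2.50 ± 0.13 and -2.05 ± 0.34 after 1, 3 and 6 weeks, a mean shift of 1.43 (pooled SD 0.38) or 2.7-fold. Pfkl moved against Pfkm by 0.32, 0.52 and 0.55 (mean 0.46, pooled SD 0.16), and Pfkp against Pfkl by 0.99, 0.75 and 1.17 (mean 0.97, pooled SD 0.23). In all 3 ratios the PAC arrays were clear of the sham RV arrays.

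Leaving out single arrays showed where these calls are thin. The mean PAC change of Pfkp (1.37 ± 0.19, limma adjusted p = 0.0036) was 1.26 without sham RV array 2, just above the threshold (adjusted p = 0.051, the highest of all alternatives, the lowest being 0.00021). That of Pfkl (0.40 ± 0.07, adjusted p = 0.008) was 0.34 without the same array (0.085, the range being 0.0022 to 0.085). At 1 week Pfkp was 0.77 without PAC array 2 (adjusted p = 0.052) and 1.09 without sham RV array 2 (0.081). At 3 weeks the Pfkp and Pfkl calls were lost without PAC array 2 (1.16 and 0.42, adjusted p = 0.19 for both), sham RV array 1 (1.36 and 0.56, 0.069 for both) or sham RV array 2 (1.13 and 0.45, 0.13 and 0.12). At 6 weeks both were lost without PAC array 2 (1.46 and 0.45, adjusted p = 0.09 and 0.15) or sham RV array 2 (1.55 and 0.44, 0.06 and 0.094). No alternative turned the direction of any of these calls.

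**Figure D2:**
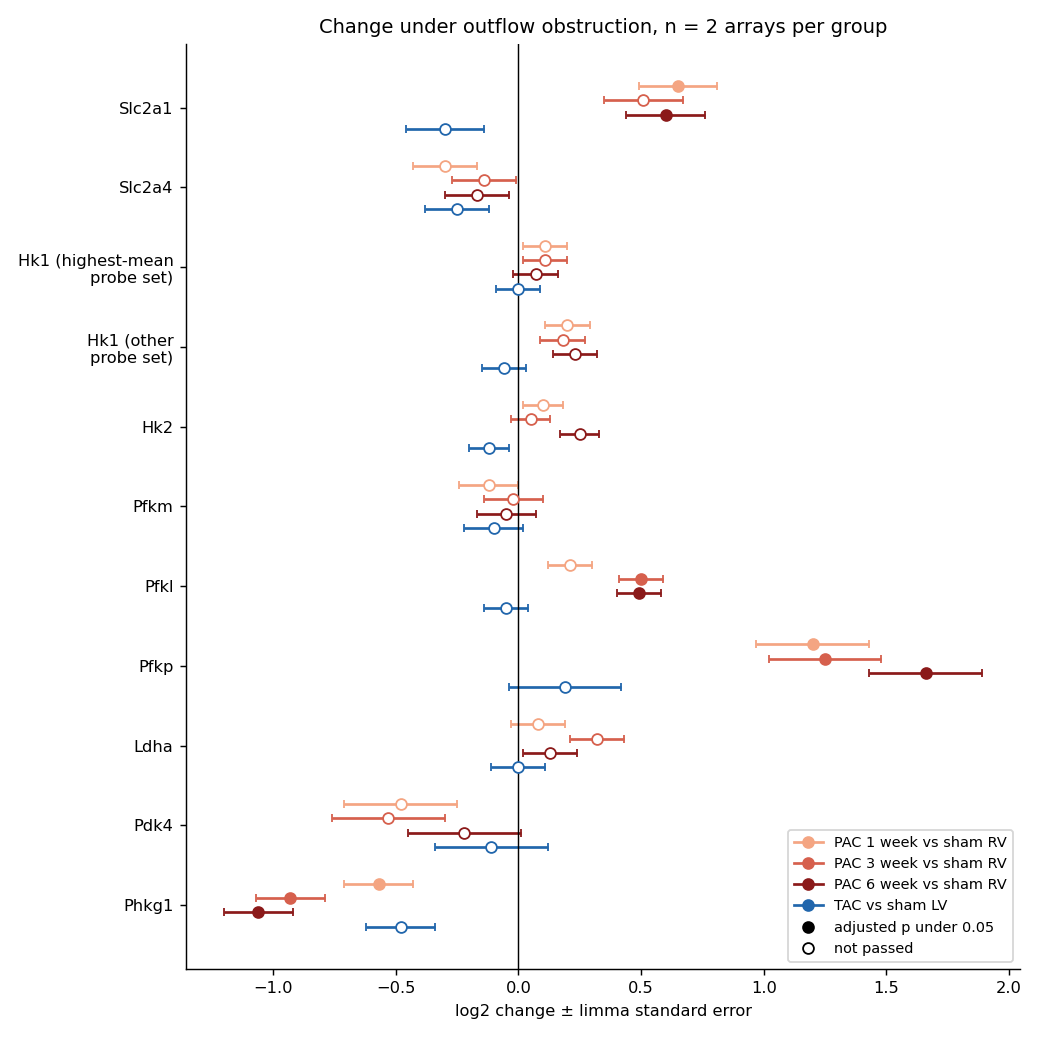
Log2 change (horizontal axis) with its limma standard error for each gene, after 1, 3 and 6 weeks of PAC against sham RV and after TAC against sham LV, n = 2 arrays per group; filled points have an adjusted p below 0.05. Pfkp stands farthest to the right at all PAC times (1.20 to 1.66) and Phkg1 farthest to the left (-0.57 to -1.06), and no TAC point is filled.

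In the LV, Pfkp read 9.50 and 9.54 after sham surgery and 9.70 and 9.72 after TAC, higher on both TAC arrays but not past the test (0.19 ± 0.23, limma adjusted p = 0.98). Pfkl read 9.52 and 9.56 against 9.49 and 9.49 (-0.05 ± 0.09, adjusted p = 0.99), and Pfkm 12.69 and 12.87 against 12.70 and 12.66 (-0.10 ± 0.12, adjusted p = 0.98). The ratio of Pfkp to Pfkm was 0.29 higher after TAC without overlap, from -3.26 ± 0.09 to -2.97 ± 0.03, and that of Pfkl to Pfkm moved by 0.05 with overlap. Sham RV lay below sham LV in both Pfkp (-0.63 ± 0.23, adjusted p = 0.16) and Pfkl (-0.28 ± 0.09, adjusted p = 0.13) with no overlap, and neither passed. For Pfkp the order of groups from the top was PAC 6 weeks, PAC 3 weeks, PAC 1 week, TAC LV, sham LV and sham RV, where the 3-week, 1-week and TAC groups overlapped their neighbours and the other steps did not. For Pfkl the 3- and 6-week PAC groups overlapped at the top, sham LV came next and sham RV last. PAC exceeded TAC at 3 weeks by 0.43 ± 0.23 for Pfkp (adjusted p = 0.71) and 0.27 ± 0.09 for Pfkl (0.59). The interactions were 1.06 ± 0.32 for Pfkp (adjusted p = 0.36) and 0.55 ± 0.13 for Pfkl (0.35), so a difference between the chambers in the response was not shown at this array number.

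**Figure D3:**
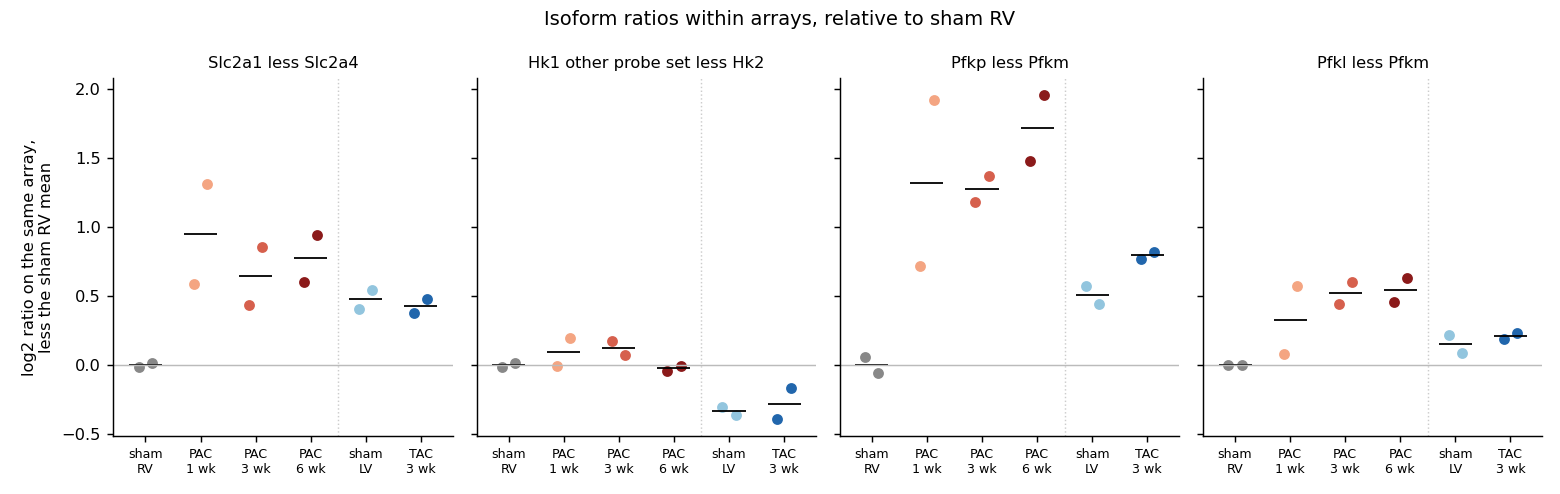
Log2 ratio of a pair of isoforms on the same array, less the sham RV mean (vertical axis), for each array (points, with lines at group means) in the 6 groups (horizontal axis). The Slc2a1 to Slc2a4 and the phosphofructokinase ratios sit above 0 on all PAC arrays, with a mean PAC shift of 1.43 for Pfkp to Pfkm. They also sit above 0 on all LV arrays, sham and TAC. The Hk1 (other probe set) to Hk2 ratio lies near 0 in the RV and below it in the LV.

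At the end of glycolysis neither gene passed. Ldha, which makes the lactate dehydrogenase subunit that favours lactate formation, read 12.32 and 12.24 in the sham RV, 12.27 and 12.44 after 1 week, 12.45 and 12.76 after 3 weeks and 12.38 and 12.45 after 6 weeks of PAC. Arrays of 3 and 6 weeks were above the sham RV and those of 1 week overlapped it, with changes of 0.08, 0.32 and 0.13, each ± 0.11 (limma adjusted p = 0.62, 0.087 and 0.43). The 3-week change passed without PAC 3-week array 1 (0.48, adjusted p = 0.046) and with a trended and robust prior (0.32, 0.047). Sham LV and TAC arrays lay between 12.27 and 12.33, and the interaction was 0.33 ± 0.15 (adjusted p = 0.43). Pdk4, the kinase that shuts off pyruvate dehydrogenase and so spares glucose, read 11.78 and 11.66 in the sham RV, 11.51 and 10.97 after 1 week, 10.97 and 11.41 after 3 weeks and 11.39 and 11.59 after 6 weeks. Sham RV held the highest Pdk4 arrays of the series, above all PAC and LV arrays, and the arrays of a group could lie far apart (11.48 and 10.81 after TAC). The PAC changes were -0.48, -0.53 and -0.22, each ± 0.23 (adjusted p = 0.15, 0.15 and 0.53), and sham RV against sham LV gave 0.47 ± 0.23 (0.28).

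Phkg1, the catalytic gamma subunit of muscle phosphorylase kinase, which switches on glycogen phosphorylase, fell at every PAC time. It read 8.44 and 8.38 in the sham RV, 8.05 and 7.63 after 1 week, 7.56 and 7.41 after 3 weeks and 7.50 and 7.20 after 6 weeks. All PAC arrays lay below the sham RV, and those of 3 and 6 weeks lay below both 1-week arrays. The change was -0.57 ± 0.14 (limma adjusted p = 0.025), -0.93 ± 0.14 (0.018) and -1.06 ± 0.14 (0.0072, 2.08-fold lower), with a mean of -0.85 ± 0.12 (0.0036). The mean change passed in 12 of 12 fits that left out 1 array (-0.92 to -0.78, highest adjusted p = 0.044). At 1 week the call was lost without PAC array 2 (-0.36, adjusted p = 0.16), sham RV array 1 (-0.54, 0.09) or sham RV array 2 (-0.60, 0.10). At 3 weeks it was lost without PAC array 2 (-0.85, 0.16), sham RV array 1 (-0.9, 0.069) or sham RV array 2 (-0.95, 0.086), and at 6 weeks without PAC array 2 (-0.91, 0.089). The difference of 6 from 1 week did not pass (-0.49 ± 0.14, adjusted p = 0.25).

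Phkg1 was also the gene of the 10 with the lowest unadjusted p in the TAC comparison. It read 7.85 and 7.98 in the sham LV and 7.43 and 7.43 after TAC, with no overlap, a change of -0.48 ± 0.14 (limma adjusted p = 0.98). Sham RV exceeded sham LV by 0.50 ± 0.14 (adjusted p = 0.10) and was the highest group, with no overlap with the next. The interaction was -0.44 ± 0.20 (adjusted p = 0.42). PAC and TAC at 3 weeks overlapped in level.

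The correlations of the 4 genes that passed over the 12 arrays are given as a description, since genes that differ between the same groups correlate by that choice. Pfkp correlated with Pfkl (Pearson r = 0.85), with Slc2a1 (0.77) and with Phkg1 (-0.85), Pfkl with Phkg1 (-0.83) and Slc2a1 (0.7), and Slc2a1 with Phkg1 (-0.59). Pfkl also followed Ldha (0.76). Slc2a4 followed Pfkm (0.75). The genes most alike to each over the 12 arrays were Dsel (0.98), the TGF-beta receptor Tgfbr1 (0.975) and the lysophosphatidic acid receptor Lpar1 (0.97) for Pfkp. For Pfkl they were the translation factor Eif3a (0.971), Spns2 (0.933) and Btnl9 (0.929), and for Slc2a1 Cyp20a1 (0.962), Trip4 (0.952) and the casein kinase Csnk1a1 (0.949). For Phkg1 they were Tlcd4 (0.97), the nuclear receptor coactivator Ncoa1 (0.962) and the mitochondrial aspartate aminotransferase Got2 (0.96). Dsel was at a mean of 6.30 in the sham RV and 7.32 in PAC, and Tlcd4 at 6.00 and 5.19.

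Around these genes, 89 of 101 genes of glucose use were measured, from a list written with earlier results of these data known. Their shares are therefore a description. In the mean of the PAC times 18 were called higher and 12 lower, with a median change of 0.00 beside -0.05 over all genes. These are 20.2% and 13.5% of the list, beside 12.2% and 12.6% of all genes, so the share called lower was about that of all genes. By time, 13 were higher and 4 lower after 1 week (14.6% and 4.49%, beside 9.57% and 8.86%), 6 and 2 after 3 weeks (6.74% and 2.25%, beside 3.22% and 2.54%) and 9 and 5 after 6 weeks (10.1% and 5.62%, beside 5.52% and 3.73%). None passed for TAC or between the sham chambers by limma, where 8 (8.99%) and 24 (27%) had an unadjusted p below 0.05, beside 4.83% and 20.7% of all genes. These counts shrink with single arrays left out. Of the 30 genes in the mean comparison, 6 passed without sham RV array 1, 2 without sham RV array 2 and 15 without PAC 6-week array 2. At 1 week the 17 became 1 without PAC array 2 and 2 without either sham RV array. At 3 weeks the 8 became 0 without PAC array 2 or either sham RV array, and at 6 weeks the 14 became 0 without PAC array 2 and 3 or 2 without sham RV array 1 or 2.

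Of the 20 glycogen genes, in whose breakdown Phkg1 acts, 5 rose and 1 fell in that mean. The other phosphorylase kinase subunit genes measured did not pass. Their changes were 0.08 ± 0.07 for Phkg2 (limma adjusted p = 0.44), -0.05 ± 0.08 for Phkb (0.68), 0.26 ± 0.09 for Phka1 (0.056) and -0.08 ± 0.09 for Phka2 (0.5). Ugp2, which makes the UDP-glucose used for glycogen, rose by 0.66 ± 0.08 (limma adjusted p = 0.0031), and Pgm2, of the phosphoglucomutase family, by 0.47 ± 0.08 (0.0068). Pgm1 of that family, brighter than Pgm2 (mean 11.03 against 7.39), did not pass (-0.07 ± 0.09, adjusted p = 0.54). Ppp1r3b, which brings protein phosphatase 1 to glycogen, fell by 0.31 (-0.31 ± 0.09, adjusted p = 0.036). Ppp1r3c of the same family, brighter than Ppp1r3b (mean 10.28 against 7.94), went the other way. It rose by 0.44 ± 0.11 (adjusted p = 0.022, arrays overlapping). Ugp2 group means stepped from 9.47 in the sham RV to 9.83, 10.11 and 10.43 after 1, 3 and 6 weeks of PAC.

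Of the 7 other carriers of glucose and lactate, none rose and 1 fell, the glucose transporter Slc2a12 (-0.70 ± 0.16, limma adjusted p = 0.015). Of the 9 genes of early glycolysis, 1 rose, Pfkfb3 (0.42 ± 0.12, adjusted p = 0.034, arrays overlapping), which makes the phosphofructokinase activator fructose 2,6-bisphosphate. Pfkfb2 of the same family, brighter than Pfkfb3 (mean 10.65 against 7.02), did not pass (0.23 ± 0.14, adjusted p = 0.21). Fbp2, the muscle fructose bisphosphatase that reverses the phosphofructokinase step, was the 1 that fell (-0.95 ± 0.25, 0.025). Of the 9 genes of late glycolysis and lactate, none rose and 3 fell: Ldhd (-0.31 ± 0.10, 0.04), Pklr (-0.30 ± 0.10, 0.043) and Ldhb (-0.32 ± 0.10, 0.033), whose used probe set sits among probe sets of another chromosome. The same holds for the probe sets of Pgk1, Mpc1 and Akt2. Pklr was dim (mean 6.17 over the arrays), and Pkm, the brighter pyruvate kinase gene (11.62), did not pass (0.12 ± 0.08, adjusted p = 0.26). Of the 13 genes of pyruvate entry to mitochondria, 1 fell, Pdk2 (-0.35 ± 0.10, adjusted p = 0.028), another kinase of pyruvate dehydrogenase beside Pdk4.

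In the branches off glycolysis, 4 of 7 genes rose and none fell. They included the pentose phosphate enzyme Pgd (0.45 ± 0.07, limma adjusted p = 0.0059) and the hexosamine enzyme Gfpt2 (0.52 ± 0.13, 0.02). Of the 24 regulators of glucose use, 8 rose and 5 fell. Hif1a, an oxygen-regulated transcription factor subunit, rose by 0.73 ± 0.08 (adjusted p = 0.0021), from 9.80 ± 0.04 (SD, n = 2) in the sham RV to 10.58 ± 0.10, 10.42 ± 0.09 and 10.61 ± 0.08 after 1, 3 and 6 weeks. It was at 10.18 ± 0.05 in the sham LV and 10.33 ± 0.09 after TAC. Epas1, another such subunit, fell in the mean of the PAC times (-0.27 ± 0.09, adjusted p = 0.042) and at 1 week (-0.36 ± 0.10, 0.041). Arrdc4, an arrestin-domain protein related to Txnip, rose by 0.55 ± 0.10 (0.0082). Tbc1d4, which gates the move of GLUT4 to the cell surface, fell (-0.49 ± 0.11, 0.014), as did Mlxip, a glucose-sensing factor (-0.32 ± 0.07, 0.012). Group means of Tbc1d1, related to Tbc1d4, went the other way. They were 7.23 ± 0.27 in the sham RV and 8.11 ± 0.49, 7.90 ± 0.11 and 7.81 ± 0.12 after 1, 3 and 6 weeks.

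**Figure D4:**
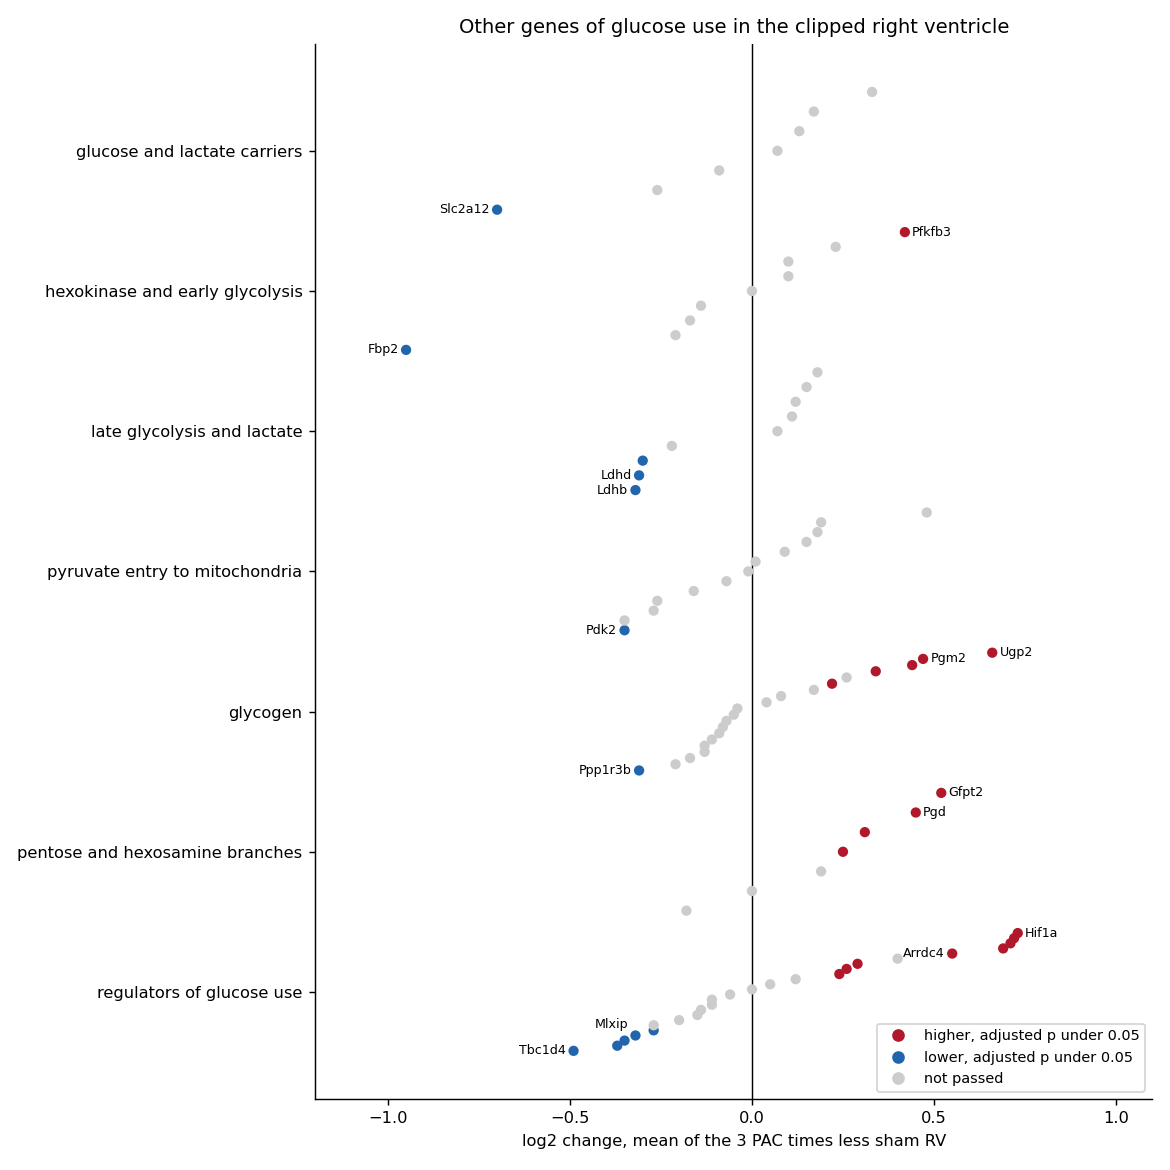
Log2 change of the mean of the 3 PAC times against sham RV (horizontal axis) for 89 other genes of glucose use, in 7 lists by role (vertical axis, genes ordered by change within a list); red and blue points passed at an adjusted p below 0.05 and gray ones did not. Ugp2 (0.66) and Hif1a (0.73) stand to the right and Fbp2 (-0.95) and Slc2a12 (-0.70) to the left, and no gene of late glycolysis is red.

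In bulk tissue, fewer cells of a type and less RNA per cell cannot be told apart, and several cell type lists moved with these genes. The 8 cardiomyocyte markers bore out the tissue label, with a mean level of 13.47 to 13.62 on all arrays, and 2 of them fell in the mean of the PAC times (13.61 to 13.62 in the sham RV and 13.47 to 13.56 in PAC). Of the 8 fibroblast markers 6 rose by limma in the mean of the PAC times, the list standing at 9.45 in the sham RV, 10.28 to 11.1 after 1 week, 10.58 to 10.71 after 3 weeks and 10.18 to 10.62 after 6 weeks, and at 9.54 to 10 in the sham LV and 9.94 to 10.05 after TAC. Of the 8 endothelial markers 7 rose (9.6 to 9.64 in the sham RV, 9.8 to 10.07 in PAC). Of the 8 macrophage markers 7 rose at 1 week (7.93 to 7.97 in the sham RV, 8.41 to 9.25 after 1 week and 8.01 to 8.07 after 6 weeks), none at 3 or 6 weeks and 1 in the mean. The 7 cycling markers measured all rose at 1 week (5.54 to 5.65 against 6.98 to 7.92). The cycling list stood at 6.25 to 6.57 after 3 weeks and 5.88 to 5.99 after 6 weeks of PAC, and at 5.74 to 5.75 in the sham LV and 6.43 to 6.59 after TAC, where none of the 7 passed. Of 8 smooth muscle markers 4 rose in the mean, and of 8 atrial markers 5 (7.1 to 7.61 in the sham RV, 8.31 to 10.26 in PAC). The atrial list stood at 7.98 to 9.0 in the sham LV and 8.15 to 8.3 after TAC, so the sham RV was its lowest group. Of 10 skeletal muscle markers 4 fell (6.15 to 6.17 against 5.89 to 6.03), with Myh1 and Myh4 below the background level on all arrays, and of 8 adipocyte markers 2 rose and 3 fell, with Adipoq, Lep and Ucp1 below background. Of 8 erythroid markers 3 were measured and none passed at 1 week or in the mean. The part of these lists in the changes of Slc2a1, Pfkl, Pfkp and Phkg1 was not tested.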

How the data were processed

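The values were the deposited log2 expression values of 12 Affymetrix whole-transcript arrays, made by the authors with RMA in Affymetrix Power Tools per the submitters' processing notes. For versions, library files and genome build: not given in the sources used here. RMA fits probes across all arrays and compresses low levels, so folds of dim genes are understated. Values ran from 1.71 to 14.78, with array medians of 6.32 to 6.4, and were used as deposited. Arrays have no read depth, so their number, 2 per group, limits the precision.

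Of 35556 probe sets, 21789 were annotated to 1 gene and were used, 1621 to several genes and 12146 to none, and 91 carried a gene missing from the RefSeq table. The highest-mean probe set stood for each of 19938 genes, a choice made for 999 of them. limma 3.58.1 (R 4.3.3) fitted 1 mean per group to all 12 arrays (6 residual and 4.6 prior degrees of freedom), with Benjamini-Hochberg adjustment over all genes at 0.05. Over all genes the standard error had a median of 0.112 (any 2 groups), 0.159 (interaction) and 0.092 (mean of the PAC times). On simulated data for PAC 3 weeks against sham RV (19938 genes, 5 runs of 200 changed genes), 34.8% of changes of 0.5 and 87.4% of changes of 1 were recovered. In these runs 5.6% of calls were false. The simulated noise was normal and independent between genes and arrays, with no other differences between groups. These shares therefore do not give the share of false calls in the real data. Isoform ratios are differences of log2 values on 1 array and were not tested. A marker was counted below background where it lay under each array's median of the probe sets with no listed gene (5.65 to 5.79).

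The genes and lists were chosen with earlier results of these data known. All 10 genes are named, with up to 2 genes per list and direction of smallest p, and the 3 genes of highest correlation for each of the 10 called in 2 or more comparisons. Pgm1, Pkm, Pklr, Tbc1d1, Epas1, Ppp1r3c, Pfkfb2, Phkg2, Phkb, Phka1 and Phka2 are named beyond that rule, after their values were seen. Alternatives were cyclic loess, mean probe sets, a filter on low genes, a trended and robust variance prior, only the arrays compared, the replicate number as a block, and each array left out. After the data were seen, the other Hk1 probe set and the pathway counts under these alternatives were added.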

Additional observations from a re-analysis of the deposited data

How the results depend on the processing

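The 14 called changes of Slc2a1, Pfkl, Pfkp and Phkg1 kept their direction in every alternative run. They kept their calls with mean probe sets, without genes below the median level and with a trended and robust prior (14 of 14 each), and 13 with cyclic loess, where Slc2a1 at 6 weeks was lost. With only the arrays compared 11 were kept, and 11 with array 2 of both PAC 1 week and sham LV left out. In both of these fits 0 of the 10 genes passed at 1 week. Without sham RV array 1, 7 were kept, and without sham RV array 2, 2. Leaving out 1 array at a time gave 0 to 4 genes called at 1 week, 0 to 5 at 3 weeks, 0 to 4 at 6 weeks, 1 to 5 in the mean of the PAC times and 0 to 4 by the F test. Between sham RV and sham LV, 2 genes (Hk2 and Slc2a1) passed without genes below the median level and 2 with the trended and robust prior.

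Changes that passed no test turned sign in some fits, and the cause was not tested. Leaving out 1 array moved Ldha from -0.01 to 0.16 and Pfkm from -0.29 to 0.06 at 1 week, Pfkm from -0.08 to 0.03 at 3 weeks and from -0.11 to 0.0 at 6 weeks. It moved Hk1 from -0.03 to 0.16 at 6 weeks and from 0.0 to 0.19 in the mean, and the Hk1 to Hk2 shift from -0.16 to 0.08. With both arrays named above left out, Ldha was at -0.01 and Pfkm at 0.06 at 1 week.

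Counts over all genes moved more. They were 3675, 1148, 1844 and 4941 at 1, 3 and 6 weeks and in the mean, with 531 by the F test and 82 between the sham chambers. Cyclic loess gave 2143, 557, 1253, 3084, 363 and 52. Only the arrays compared gave 89, 1090, 1020 and 2914, and 6 between the sham chambers. A trended and robust prior gave 3817, 1648, 2337, 5162, 1484 and 723, and the filter 2694, 1587, 2437, 3685, 1306 and 871. Leaving out 1 array gave 227 to 4557, 3 to 2070, 3 to 2656 and 296 to 6235.

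The labels do not say what a shared replicate number stands for. Deviations of same-numbered arrays correlated above 0.1 in 5 of 15 pairs of groups (r from -0.24 to 0.37), so the numbers were not taken as a pairing over all groups. Among the PAC groups all 3 pairs were above 0.1 (0.263 for 1 and 3 weeks, 0.37 for 1 and 6, 0.261 for 3 and 6), and none of these groups exceeded 0.1 with sham RV. Array 2 was the farther from sham RV at each PAC time for Slc2a1, Pfkl, Pfkp and Phkg1. It also held the higher fibroblast marker list (11.1 against 10.28, 10.71 against 10.58 and 10.62 against 10.18 at 1, 3 and 6 weeks). The same was so for the atrial list (10.26 against 9.13, 9.55 against 8.49 and 8.74 against 8.31), also in the sham LV (9.0 against 7.98). The macrophage and cycling lists were not higher on array 2 at every PAC time. The part of this in the calls was not tested. With the replicate number as a block, 3, 3, 4 and 4 of the 10 genes were called at 1, 3 and 6 weeks and in the mean, and 3761, 1387 and 1941 of all genes at the 3 times, with 14 of the 14 called changes kept.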
